A study of Mus musculus with 4 samples.

Results

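The spots described here are the 200 places with the highest combined level of Ccn2 and Cplx3 among 13452 spots of 4 coronal mouse brain sections. They are called subplate (layer 6b) spots after these markers of the deepest layer of the cortex. In each section the spots with at least 500 unique molecular identifiers (UMIs, counted molecules) and 250 genes were kept, and each spot was scored by the mean over Ccn2 and Cplx3 of ln(1 + UMIs per 10000 UMIs of the spot). The 50 spots with the highest score in each section became members. The sections are replicates 1 and 2 of the MF group and replicates 1 and 2 of the HF group, and values of 4 sections are given in this order throughout. They held 3598, 3314, 3197 and 3343 kept spots. The members thus make up between 1.39 and 1.56% of each section.

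The sections came from wild-type male C57BL/6J offspring at postnatal day 21, as formalin-fixed, paraffin-embedded (FFPE) tissue. Their mothers ate a folic acid (FA) diet of 2 mg/kg (MF group, 2 sections) or of 20 mg/kg (HF group, 2 sections) from 2 weeks before mating and through pregnancy and lactation. In the Visium-FFPE assay, probe pairs bind the RNA of a thin tissue section and are counted in the spots of an array, each with its own barcode. A spot is a small area of tissue that can hold several cells, some of them of different types, so a level in a spot is not a level in a cell.

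The subplate holds some of the earliest cortical neurons, and it serves in development as a transient waiting zone and target for axons that grow in from the thalamus. Many of its neurons are lost after birth. Those that remain form layer 6b in rodents, a thin sheet between layer 6 and the white matter whose neurons respond to orexin and to other transmitters of the arousal systems. Ccn2 (ENSMUSG00000019997, chromosome 10 of GRCm38 from 24595442 to 24598683) encodes connective tissue growth factor, a secreted protein that binds extracellular matrix. Cplx3 (ENSMUSG00000039714, chromosome 9 from 57599992 to 57606281) encodes complexin 3, which binds the SNARE complex that fuses synaptic vesicles.

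The score left no gap between members and the rest. The member with the lowest score reached 1.26, 0.922, 1.15 and 1.44, and the highest score outside was 1.25, 0.918, 1.14 and 1.43, so the set is the top of a continuous range. A member held a median of 18, 4, 5 and 9 UMIs of Ccn2 and of 12, 2, 2.5 and 4 UMIs of Cplx3. No Cplx3 UMI was counted in 0, 5, 7 and 0 of the 50 members, and no Ccn2 UMI in 1 member of MF replicate 2. The members of the shallower sections were therefore chosen on a few molecules. They held 26.6, 21.6, 23.9 and 25.5% of all Ccn2 UMIs of their section, and 25, 18.0, 25.3 and 22.9% of all Cplx3 UMIs.

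Depth differed between sections. Kept spots held 90096877, 42422997, 34982061 and 42506921 UMIs in all, and the members 1655081, 591043, 407058 and 610525. A member had a median of 33655.5, 11730.5, 7198.5 and 12501 UMIs against 23420, 12093.5, 9330 and 11815 in the other spots, so that members were deeper than other spots in MF replicate 1 and shallower in HF replicate 1. Spot barcodes mark array positions, which all arrays have in common. Of the 4259 barcodes among kept spots, 2472 occurred in all 4 sections, and they identify no shared cells.

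The array positions, which the score did not use, placed most members in a thin arc under the cortex. Of the 50 members, 41, 33, 35 and 42 had another member among the 6 nearest array positions (82, 66, 70 and 84%, with a mean of 75.5% and an SD of 8.85 over 4 sections). Among other spots, 3.97, 5.39, 5.05 and 4.59% had a member next to them. The layer 6 comparison spots, the 100 spots outside the members with the highest mean level of the layer 6 genes Syt6, Rprm, Tle4 and Tbr1, ran along the outer side of the arc. Within 2 array steps of such a spot lay 39, 36, 40 and 40 of the members, against 15.3, 20.2, 22.3 and 17.9% of the other spots. Members joined into groups of at least 3 within 2 steps are called the band below, with 46, 40, 34 and 44 spots. The other 4, 10, 16 and 6 members lay apart from it.

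**Figure D1:**
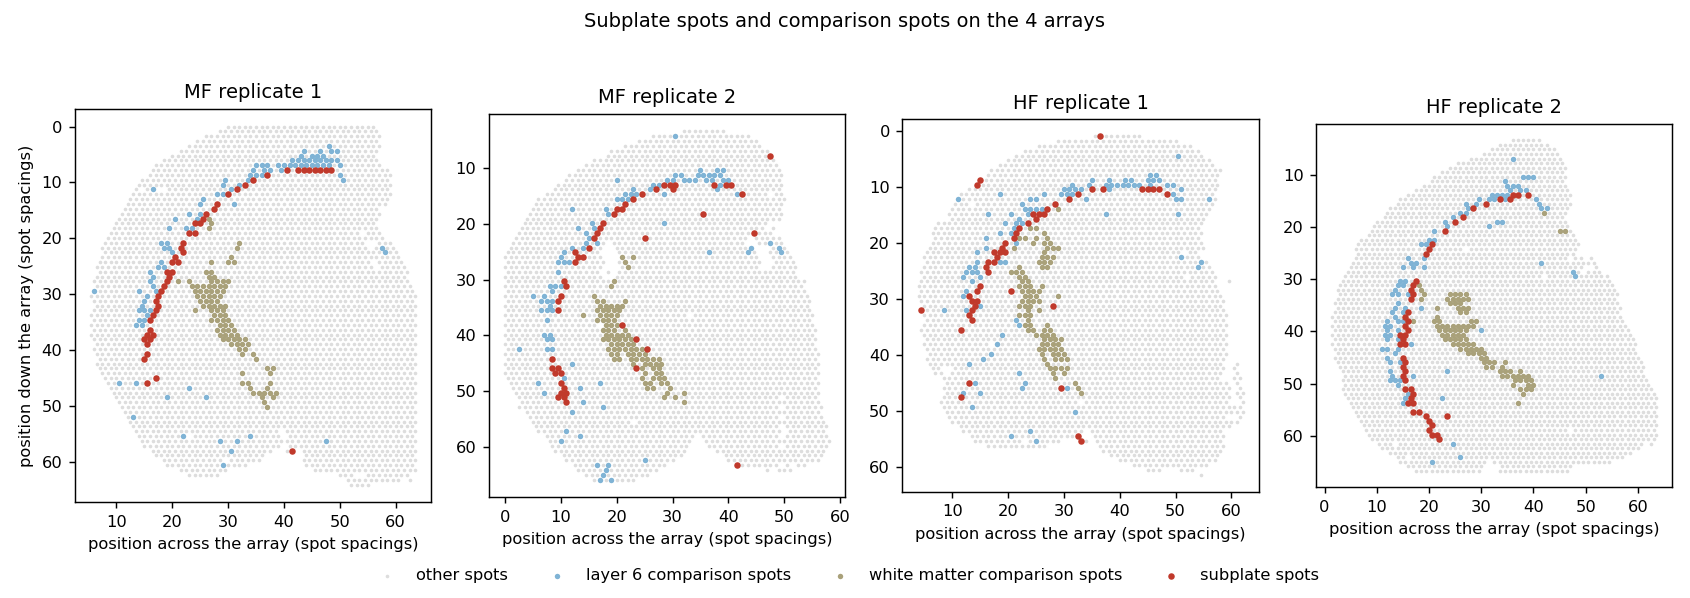
Positions of the kept spots on the 4 arrays, in units of the distance between neighbouring spots, with the 50 subplate spots of each section in red, 100 layer 6 comparison spots in blue and 100 white matter comparison spots in brown. Most red spots form an arc just inside the blue ones, while 4, 10, 16 and 6 of the 50 lie apart from it. In HF replicate 2 the arc reaches farther down the array than in the other sections.

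The members outside the band did not all carry the same genes. Nxph4, which encodes a secreted ligand of neurexins and was not used for the score, had 114, 56.2, 79.2 and 100 CPM in the band (the gene's UMIs scaled by the total UMIs of the summed spots). Outside the band it had 113, 18.1, 42.9 and 95.1 CPM. The smooth muscle gene Acta2 had 6.38, 12.5, 3.44 and 14.6 CPM in the band and 979, 200, 678 and 0 CPM outside it. Over all 9 vessel genes with a probe, the summed level was 271 to 366 CPM in the band and 2149, 1016, 2309 and 254 CPM outside it. Over the 10 genes of meninges and fibroblasts it was 78.5 to 171 CPM in the band, and 686, 1524, 1682 and 63.4 CPM outside it. In 3 of 4 sections the scattered members thus held more RNA of vessels and meninges than the band. In HF replicate 2 they did not. These genes moved with the position of the members, and their part in the results below was not tested, but each main count is also given for the band alone.

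Rings of spots drawn around the members showed how thin the layer was. Ccn2 had 567, 426, 776 and 816 CPM in the members, 95.8, 56.1, 72.3 and 157 CPM at 1 array step on the outer side (farther from the centre of the section) and 147, 54.0, 102 and 186 CPM at 1 step on the inner side. That drop is fixed in part by the choice of spots. Nxph4 had no part in the choice, and it went from 114, 49.1, 68.8 and 99.9 CPM in the members to 11, 14.0, 7.61 and 22.3 CPM on the outer side and 24.5, 14.0, 20.1 and 39.3 CPM on the inner side. The spots next to the members had less Nxph4 than the members on either side in all 4 sections. Nxph3, a related ligand, was asymmetric, with 179, 137, 194 and 181 CPM at 1 step outward and 137, 65.0, 53.7 and 138 CPM at 1 step inward.

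The layers on either side showed in the same rings. Rprm, a marker of layer 6 neurons, was highest 1 step outward at 223, 145, 234 and 203 CPM, against 106, 98.1, 172 and 99.9 CPM in the members. Slc17a7, the vesicular glutamate transporter of cortical neurons, had 3550, 2919, 3464 and 3571 CPM in the members and 2233, 2164, 1902 and 2198 CPM at 1 step inward. Mbp, a major protein of myelin, went the opposite way, from 11167, 12297, 10937 and 9226 CPM in the members to 16192, 17452, 16554 and 14750 CPM at 1 step inward. Gfap, the intermediate filament of astrocytes, was also highest 1 step inward, at 361, 416, 356 and 284 CPM. In these rings, which pool all members, Slc17a7 thus fell and Mbp rose from the members to 1 step inward. The upper and lower parts of the band, described below, differed in myelin RNA.

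**Figure D2:**
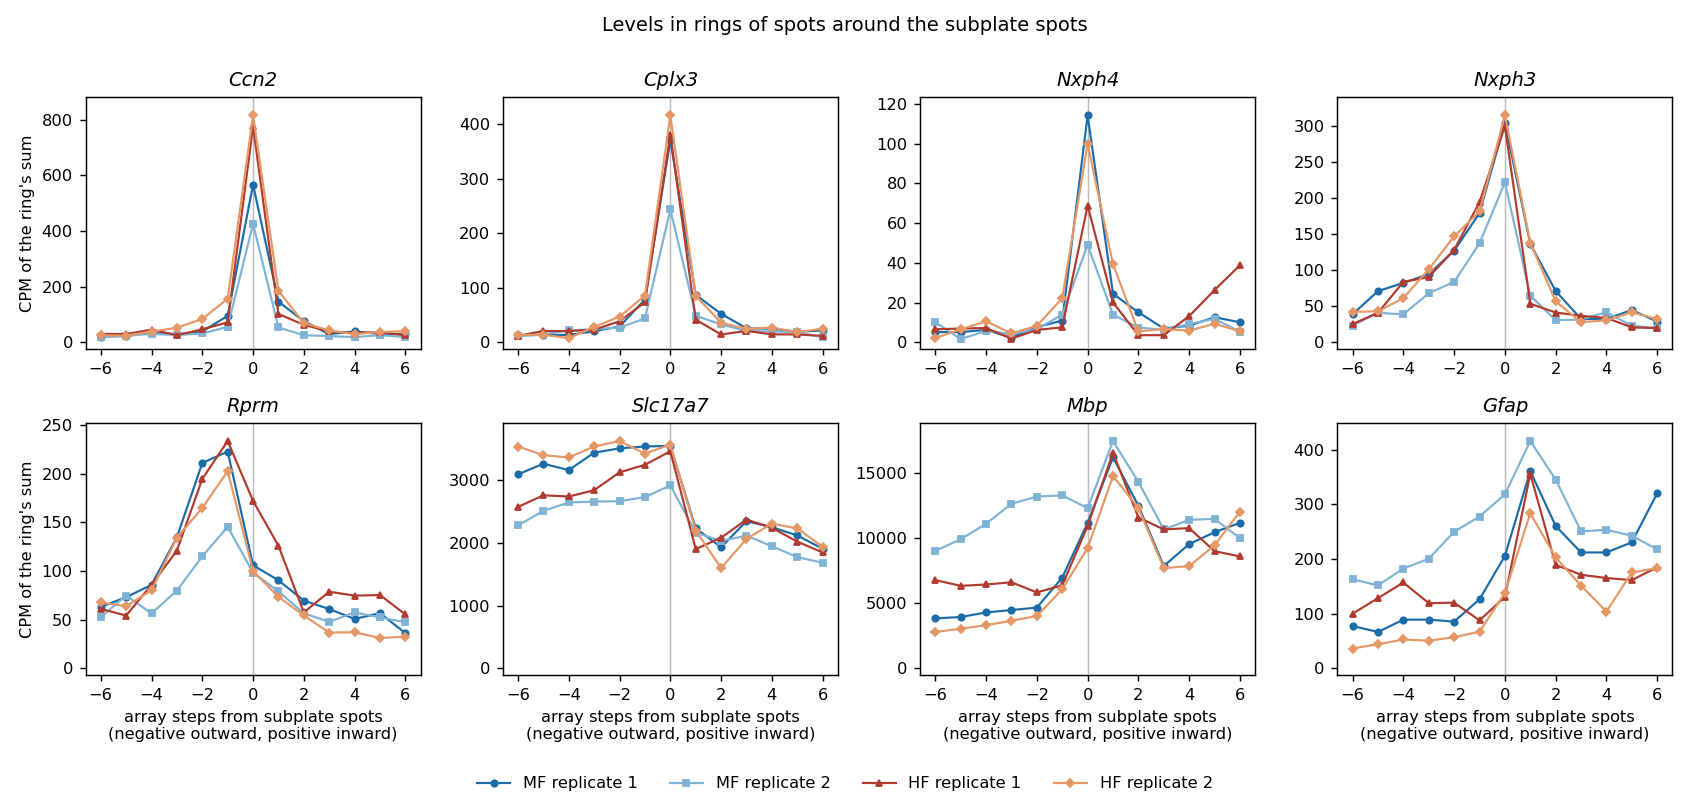
Levels (CPM of the summed spots) of 8 genes in the subplate spots (0) and in rings of other spots at 1 to 6 array steps outward (negative) and inward (positive), with 1 line per section. Nxph4 peaks at 0 in each section, Rprm 1 step outward, and Mbp and Gfap 1 step inward. In HF replicate 1 Nxph4 climbs again to 38.8 CPM at 6 steps inward, and in MF replicate 2 Mbp stays high outward.

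The label was then checked against 10 other genes reported from subplate or layer 6b neurons. The score did not use them, but they were read in the spots it chose, so the levels are given as a description. Beyond Nxph4 and Nxph3, the list holds the nuclear receptor Nr4a2, the zinc transporter Tmem163, the lysophosphatidic acid receptor Lpar1, the dopamine receptor Drd1, the orexin receptor Hcrtr2, Moxd1, Svil and Inpp4b. In the members 7 of the 10 were above all other spots in all 4 sections, and 9 of the 10 were above the layer 6 comparison spots. Among the 4841 genes with at least 20 UMIs in the members of each section, 19.9% were above other spots in all 4 sections and 13.6% above layer 6 spots. The gene lists were not held to this limit, and Drd1, Moxd1 and Hcrtr2 had few UMIs. The 4841 genes are therefore not a like set for the list. The median ratio of the list was 0.55 on the log2 scale against other spots and 0.74 against layer 6 spots, where the medians of all 4841 genes were -0.01 and -0.02.

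Nxph4 (chromosome 10 from 127525473 to 127534559) stood furthest above layer 6 spots after the 2 markers, among the genes with at least 20 UMIs in the members of each section, by 2.84-fold to 10.3-fold (with 5 CPM added to both sides, as in all ratios of levels). It was counted in 45, 22, 20 and 35 of the 50 members, against 21.1, 13.5, 11.4 and 13.4% of other spots, and lay 2.61-fold to 6.67-fold above other spots, from which Nxph3 stood further apart (6.12-fold to 7.94-fold). In the layer 6 comparison spots it had 6.60, 14.0, 9.37 and 9.39 CPM, no overlap with the members. Nxph3 had 305, 222, 300 and 314 CPM in the members and 169, 143, 142 and 170 CPM in layer 6 spots, so it was shared more with the next layer.

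Nr4a2, a transcription factor also required by midbrain dopamine neurons, had 103, 102, 135 and 185 CPM in the members. Layer 6 spots had 73.2, 64.3, 54.4 and 157 CPM, and the section with most Nr4a2, HF replicate 2, was the same in both kinds of spots. Ccn3, a relative of Ccn2 in the CCN family of matrix-binding proteins, reached 317, 371, 341 and 321 CPM against a mean of 140 CPM in other spots. Ccn1, another CCN member, had 11.5, 11.8, 17.2 and 11.5 CPM against a mean of 6.73 CPM. The complexins did not move as a family. Cplx1 was below other spots in all 4 sections (944, 993, 965 and 778 CPM against a mean of 1210 CPM), and Cplx2 had 257, 242, 280 and 314 CPM in the members and 400, 310, 349 and 486 CPM in layer 6 spots.

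Receptors for arousal transmitters were read as a list of 16 genes. In all 4 sections 7 were above and 2 below other spots, and 7 were above and 2 below layer 6 spots. Of the 4841 genes, 19.9% were above and 19.3% below other spots, and 13.6% were above and 17.8% below layer 6 spots. Adra2a, the alpha-2A adrenergic receptor, had 114, 91.4, 135 and 142 CPM in the members and 53.7, 52.7, 47.8 and 71.2 CPM in layer 6 spots, with no overlap. Htr2a, a serotonin receptor, had 31.4, 33.8, 41.8 and 47.5 CPM against a mean of 18.9 CPM in other spots, and the muscarinic receptor Chrm3 had 81.0, 71.1, 81.1 and 81.9 CPM against 47.2 CPM. Drd1 was low everywhere, with 7.25, 8.46, 4.91 and 9.83 CPM in the members and 3.14, 4.12, 1.87 and 5.48 CPM in layer 6 spots. Hcrtr2, the orexin receptor associated with layer 6b, had 7.85, 15.2, 2.46 and 4.91 CPM against a mean of 6.33 CPM in other spots. It exceeded the other spots in 2 of 4 sections.

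**Figure D3:**
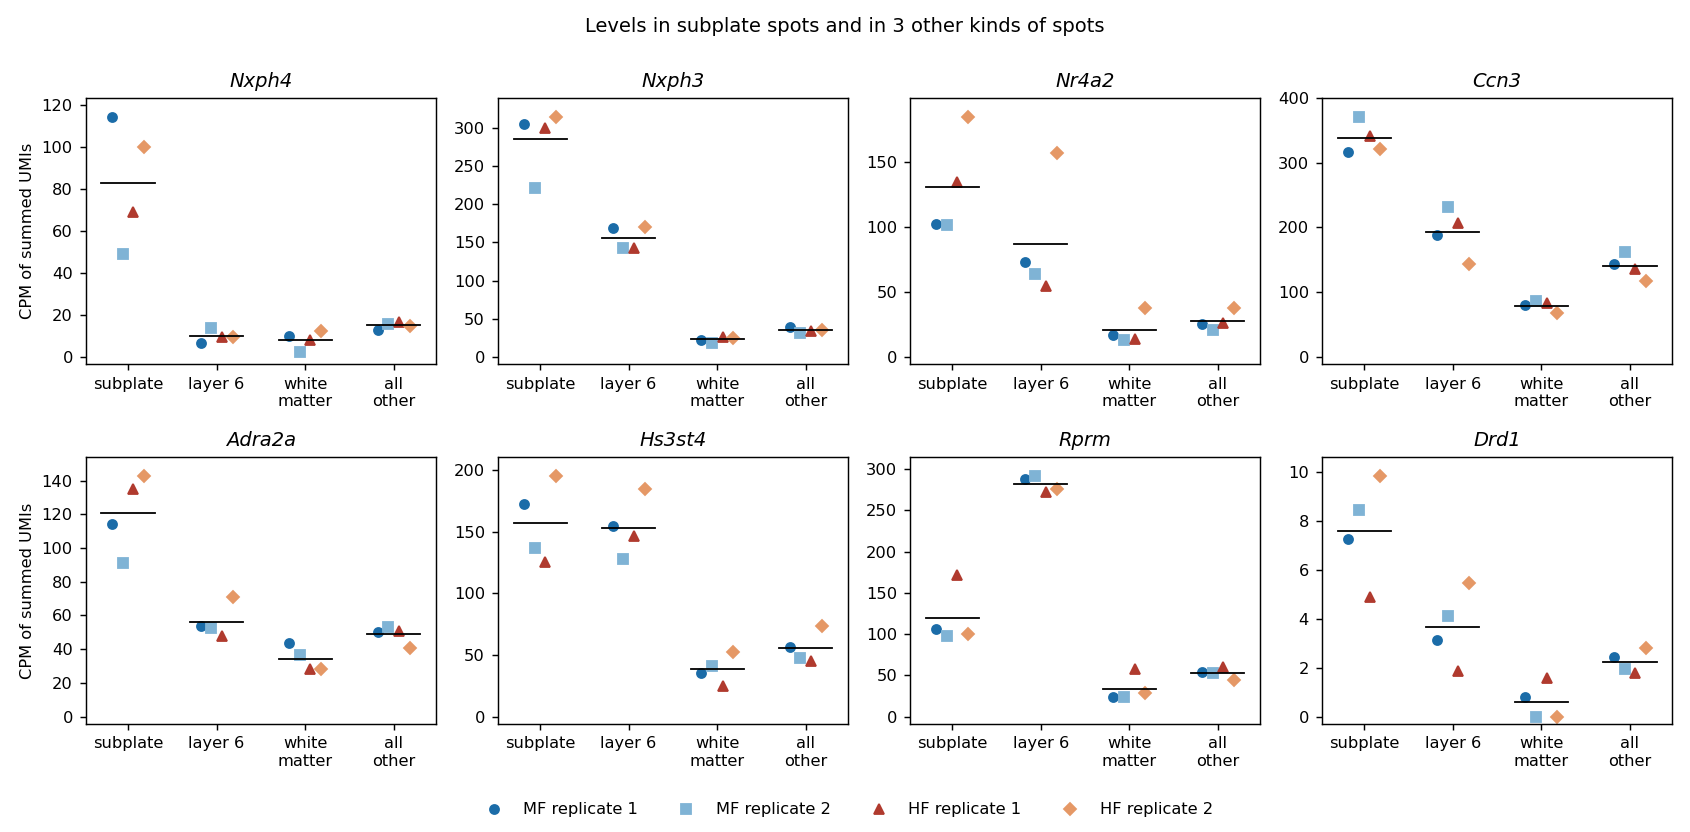
Levels (CPM of the summed spots, 1 point per section, with the mean of the 4 sections as a line) in subplate spots, in 100 layer 6 and 100 white matter comparison spots per section, and in all other spots. For Nxph4, Nxph3, Ccn3 and Adra2a all 4 subplate values lie above all values of the other kinds, whereas Hs3st4 overlaps with layer 6 and Rprm is highest in layer 6.

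By size of difference, the 15 leading genes against all other spots included genes of deep cortical layers in general. After Ccn2 (16.1-fold to 23.0-fold) and Cplx3 (12.0-fold to 21.2-fold) came Nxph3, Nr4a2, Vxn, Nxph4 and the heparan sulfate sulfotransferase Hs3st4. Among those that followed were Igsf21, the semaphorin Sema5b, Pde1a, Tpbg, the transcription factor Tbr1, Mpped1 and Hs3st2. Of all 4841 genes, 0.558% were at least 2-fold above other spots in all 4 sections. Hs3st4 had 173, 137, 125 and 195 CPM in the members and 155, 128, 146 and 185 CPM in layer 6 spots, so its levels in the 2 kinds of spots overlapped. Against layer 6 spots, 0.062% of genes (3 of 4841) were at least 2-fold higher in all 4 sections, and these were Ccn2, Cplx3 and Nxph4.

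Next in that order came Ppp1r14a, Ugt8a, Mobp, Col23a1, Adra2a, Mbp and Ccp110, several of them genes of myelinating oligodendrocytes. All 14 myelin and oligodendrocyte genes were above layer 6 spots in all 4 sections, as were 13.6% of the 4841 genes. Ugt8a, an enzyme that makes myelin galactolipid, had 319, 330, 270 and 241 CPM in the members and 173, 170, 144 and 136 CPM in layer 6 spots. In sum the 14 genes reached 31601, 32416, 29450 and 24800.0 CPM in the members and 15574 to 16368 CPM in layer 6 spots. In the white matter comparison spots, the 100 with the highest mean level of 4 myelin genes, they reached 103829 to 130676 CPM. The members lay a median of 7.5, 11, 6 and 10 steps from the nearest of those spots, and 7, 4, 13 and 10 of the 50 members lay within 2 steps of one.

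Other regions were poorly represented in the members. All 8 thalamic genes were below other spots in all 4 sections, as were 19.3% of the 4841 genes, among them the kinase gene Prkcd with 71.3, 117, 36.8 and 59.0 CPM against a mean of 310 CPM. Of the genes of hippocampus and of striatum, 7 of 8 in each list were lower in all 4 sections, and Neurod6, a hippocampal gene that cortical neurons also express, was above. Of 10 layer 6 genes, 9 were above other spots and 7 below the layer 6 comparison spots, but Syt6, Rprm, Tle4 and Tbr1 had chosen those spots. All 6 genes of claustrum and endopiriform nucleus, which border the deep cortex at the side, were above other spots in all 4 sections. So were 19.9% of the 4841 genes. Over the members as a whole, none of the 6 was above layer 6 spots in all 4 sections, against 13.6% of the 4841 genes.

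The band was not uniform along its length. It was divided at the middle member by array row into an upper and a lower part, with 23, 20, 17 and 22 spots in each, and the sums of the parts were compared within sections with edgeR's quasi-likelihood test. This comparison was added after the data had been seen. Of 6752 genes tested, with Ccn2 and Cplx3 left out because they chose the spots, 139 were higher in the lower part and 226 lower (5.41% called, 2.06% and 3.35% by direction), at an adjusted p-value under 0.05 and a fold change of at least 1.2. Of the 365, 305 went the same way in all 4 sections, as did 21.8% of all genes tested. In bulk sums like these, fewer cells of a type and less RNA per cell cannot be told apart. Sections are the replicates, and section was a block in this test. Its p-values therefore measure how the difference between the parts varied over sections, with the spread estimated across all genes.

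Nnat (chromosome 2 from 157560078 to 157562522), an imprinted gene for a small membrane protein, had the lowest p-value. It had 151, 152, 136 and 183 CPM in the upper part and 667, 1498, 507 and 1500 CPM in the lower part (log2 fold change 2.58, SE 0.11, adjusted p = 9.39e-36 by edgeR). The parts did not overlap. Ccn3 rose from 211, 199, 253 and 209 CPM to 405, 659, 367 and 444 CPM (log2 1.06, adjusted p = 2.85e-12 by edgeR). Ccn2 itself, described without a test, had 537, 380, 978 and 810 CPM above and 541, 516, 573 and 823 CPM below. So the 2 CCN genes did not share a gradient in every section.

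Summed over its 6 genes, the claustrum list had 414, 541, 421 and 806 CPM in the upper part. In the lower part it had 941, 843, 1028 and 790 CPM, higher in every section but HF replicate 2. Layer 6 spots had 743, 732, 599 and 1012 CPM, less than the lower part in every section but HF replicate 2. Of the 5 genes of the list that were tested, 3 were called higher below (Synpr, Ntng2 and Gnb4), against 2.06% of all genes tested. The 5 had a median log2 fold change of 0.62 against 0.00 over all genes. Synpr, a synaptic vesicle protein, had 117, 156, 84.2 and 279 CPM in the upper part and 342, 319, 463 and 259 CPM in the lower part (log2 1.10, adjusted p = 1.39e-08 by edgeR), with HF replicate 2 as the exception. By DESeq2 it was not called (log2 1.19, adjusted p = 0.375). Ntng2, an adhesion protein of the netrin-G family, rose by 0.79 on the log2 scale. Col23a1, a transmembrane collagen, rose from 16.9, 16.9, 32.4 and 55.0 CPM to 58.4, 86.0, 95.4 and 153 CPM (log2 1.68, adjusted p = 5.84e-07 by edgeR), higher below in every section.

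Over all genes tested, 2.06% were called higher in the lower part and 3.35% lower. Of 7 interneuron genes tested, 4 rose in the lower part, namely Sst (log2 0.47), Vip (1.24), Reln (1.03) and Cck (0.31). Of 8 arousal receptors tested, 2 rose, which were Htr2a (log2 0.998, adjusted p = 0.0443 by edgeR) and the histamine receptor Hrh3 (log2 0.67, adjusted p = 0.00151). Of 6 other subplate genes tested, Nr4a2 rose (log2 0.71, adjusted p = 0.00334 by edgeR) and Lpar1 fell (log2 -0.76). Nxph4 and Nxph3 did not pass, with log2 fold changes of -0.20 (adjusted p = 0.668) and 0.08 (adjusted p = 0.826). Slc17a7 was at 0.01, so the level of this excitatory marker did not separate the parts.

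All 14 myelin genes were called lower in the lower part, with a median log2 fold change of -1.05. Mog, a glycoprotein of the outer myelin surface, fell from 831, 651, 765 and 645 CPM to 361, 336, 389 and 211 CPM (log2 -1.22, adjusted p = 4.97e-19 by edgeR). Mbp fell from 14693, 14328, 12984 and 12847 CPM to 7652, 7329, 9097 and 4708 CPM. No section overlapped for either gene. Summed over the list, the upper part had 34195 to 42314 CPM and the lower part 13866 to 23789 CPM.

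**Figure D4:**
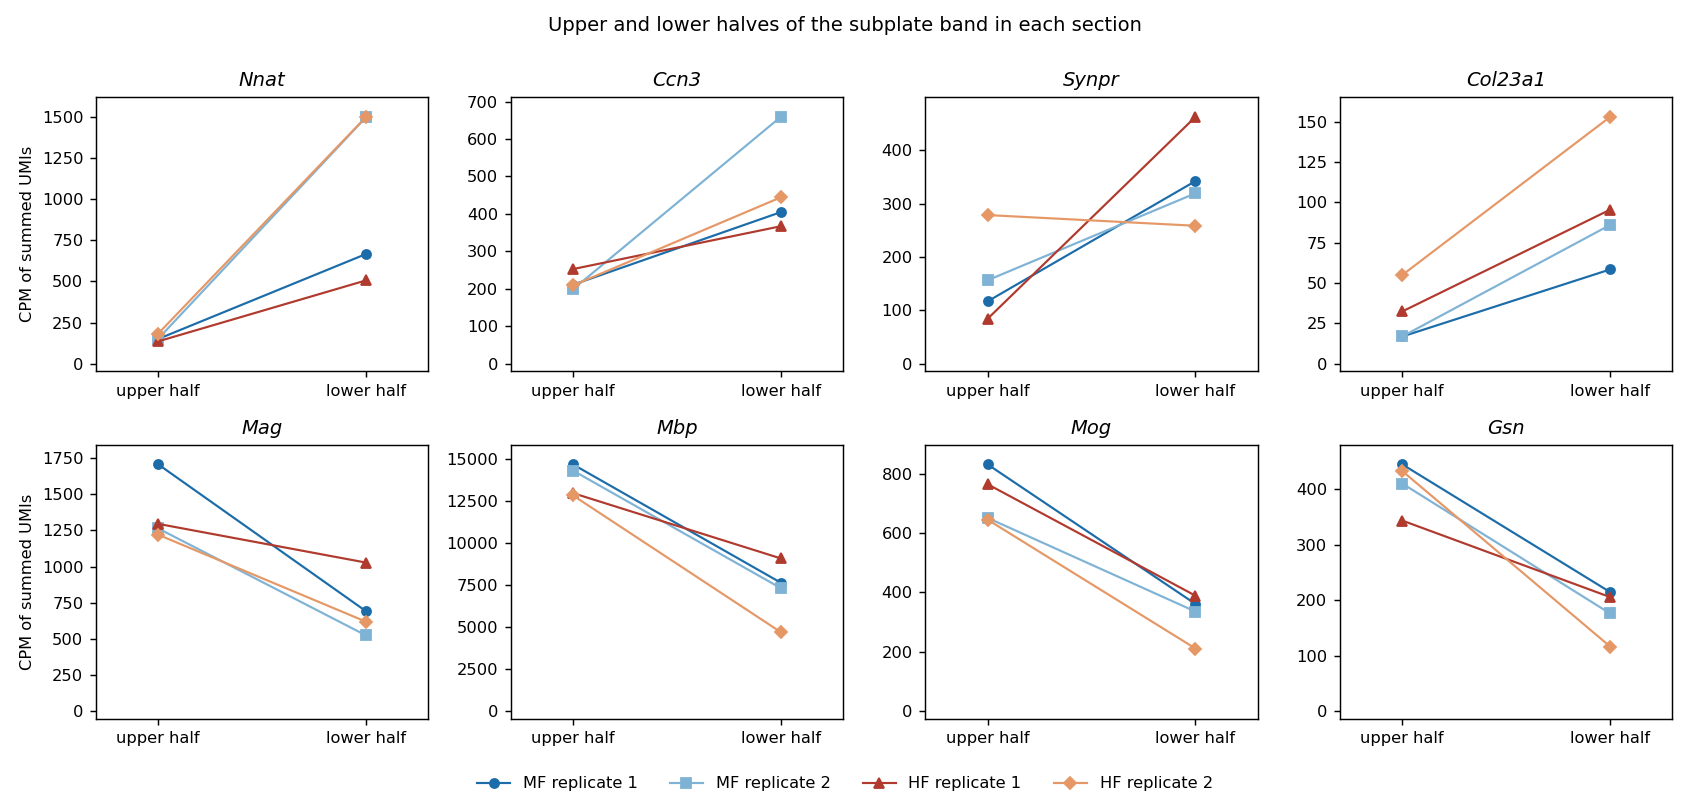
Levels (CPM of the summed spots) in the upper and lower part of the band, divided by array row, with 1 line per section. Nnat, Ccn3 and Col23a1 are higher in the lower part in all 4 sections and Synpr in 3, while the myelin genes Mag, Mbp and Mog and the actin-binding gelsolin gene Gsn are lower in all 4.

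The parts bear on the diets because the band did not lie at the same place in each section. In HF replicate 2, 32 of the 50 members were in the lower part of the whole section, against 14, 18 and 10 in the other sections. The band spanned array rows 16 to 70 there, against 9 to 48, 15 to 60 and 12 to 39. Each band was divided at its own middle member, and the upper part covered rows 9 to 26, 15 to 29, 12 to 24 and 16 to 49. Diets within a part are thus not compared at the same rows. By members in the lower part of the section, HF replicate 1 had the fewest and HF replicate 2 the most, with both MF sections between them. The part of position in the diet differences was not tested.

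Between diets, sums over the 50 members of each section were compared across the 4 sections with the same test. Of 8961 genes, 3 were called (0.0335%), 1 higher (0.0112%) and 2 lower (0.0223%) in HF, while 345 (3.85%) had an unadjusted p-value under 0.05. On simulated counts of this depth, 61% of 200 genes changed 2-fold were recovered among 8880 genes. An exact test of a single gene with 2 sections per diet cannot give a p-value below 0.333, so the calls rest on the spread estimated across all genes.

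Egr1, a zinc finger transcription factor that neuronal activity induces, had 58.0 and 66.0 CPM in the MF sections and 258 and 398 CPM in the HF sections (log2 fold change 2.46, SE 0.20, adjusted p = 4.51e-08 by edgeR). It was separate by diet in the members, and also in the band, with 58.7, 79.0, 272 and 393 CPM. The difference was not particular to these spots. In layer 6 spots Egr1 also rose (log2 2.49, adjusted p = 1.66e-07 by edgeR), and the diet effect in the members differed from that in layer 6 spots by -0.05 on the log2 scale (SE 0.18, unadjusted p = 0.772 by edgeR).

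Of 12 immediate early genes tested, Egr1 was the only one called by edgeR with the members as defined above. The list had a median log2 fold change of 0.67 against 0.00 over all genes, and 10 of 12 were positive, against 50.5% of all genes. Summed over its 18 genes, layer 6 spots had 697, 639, 1449 and 1385 CPM and all other spots 543, 543, 903 and 971 CPM. The higher sum in HF was thus not particular to the members. In 8 of 12 both HF sections lay above both MF sections and in 1 below, where 31.1% of all genes had diets that did not overlap, 15.7% with HF higher and 15.4% with HF lower. Arc, an activity-induced gene of the synapse, had 59.2 and 59.2 CPM in MF and 167 and 80.3 CPM in HF (log2 0.99, adjusted p = 0.558 by edgeR). In 3 of 16 other settings Arc was called higher in HF by edgeR. These were the replicate block (adjusted p = 0.0160), no filter on low counts (adjusted p = 0.0439) and the fit without HF replicate 2 (log2 1.47). The last leaves 1 HF section, the one with more Arc. Junb had 21.8, 37.2, 81.1 and 47.5 CPM (log2 1.21, adjusted p = 0.607 by edgeR). It was called higher in HF without MF replicate 2, a fit that leaves 1 MF section, the one with less Junb. HF replicate 1 was the higher of the HF sections for Arc and Junb, and HF replicate 2 for Egr1.

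Pmch, which encodes the precursor of melanin-concentrating hormone and is made by neurons of the lateral hypothalamus, had 131 and 94.7 CPM in MF, 34.4 CPM in HF replicate 1 and no UMI in HF replicate 2. It fell by 3.06 on the log2 scale (SE 0.45, adjusted p = 0.00174 by edgeR), and 0 UMIs in HF replicate 2 allow up to 4.91 CPM at the usual limit of 3 counts, for counting error only. Without HF replicate 2 the difference was -1.81 (adjusted p = 0.000166 by edgeR). Without HF replicate 1 the only HF section left held no UMI, so the fitted -9.82 depends on the prior count and is no bound. All members together held 217, 56, 14 and 0 UMIs. Over all kept spots of a section Pmch had 688, 497, 321 and 0.706 CPM, so the members followed the order of the whole sections, in which HF replicate 2 held almost none. How far each section reached into the hypothalamus was not tested.

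Mt2, a metallothionein that binds zinc and copper, had 440 and 519 CPM in MF and 283 and 180 CPM in HF, and fell by 1.07 on the log2 scale (SE 0.18, adjusted p = 0.0104 by edgeR). Over whole sections it had 549, 496, 354 and 290 CPM (log2 -0.71, adjusted p = 0.696 by edgeR). No gene was called over whole sections, of 14971 tested (1020, or 6.81%, at an unadjusted p-value under 0.05), and 3 of 10526 in layer 6 spots (0.0285%).

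**Figure D5:**
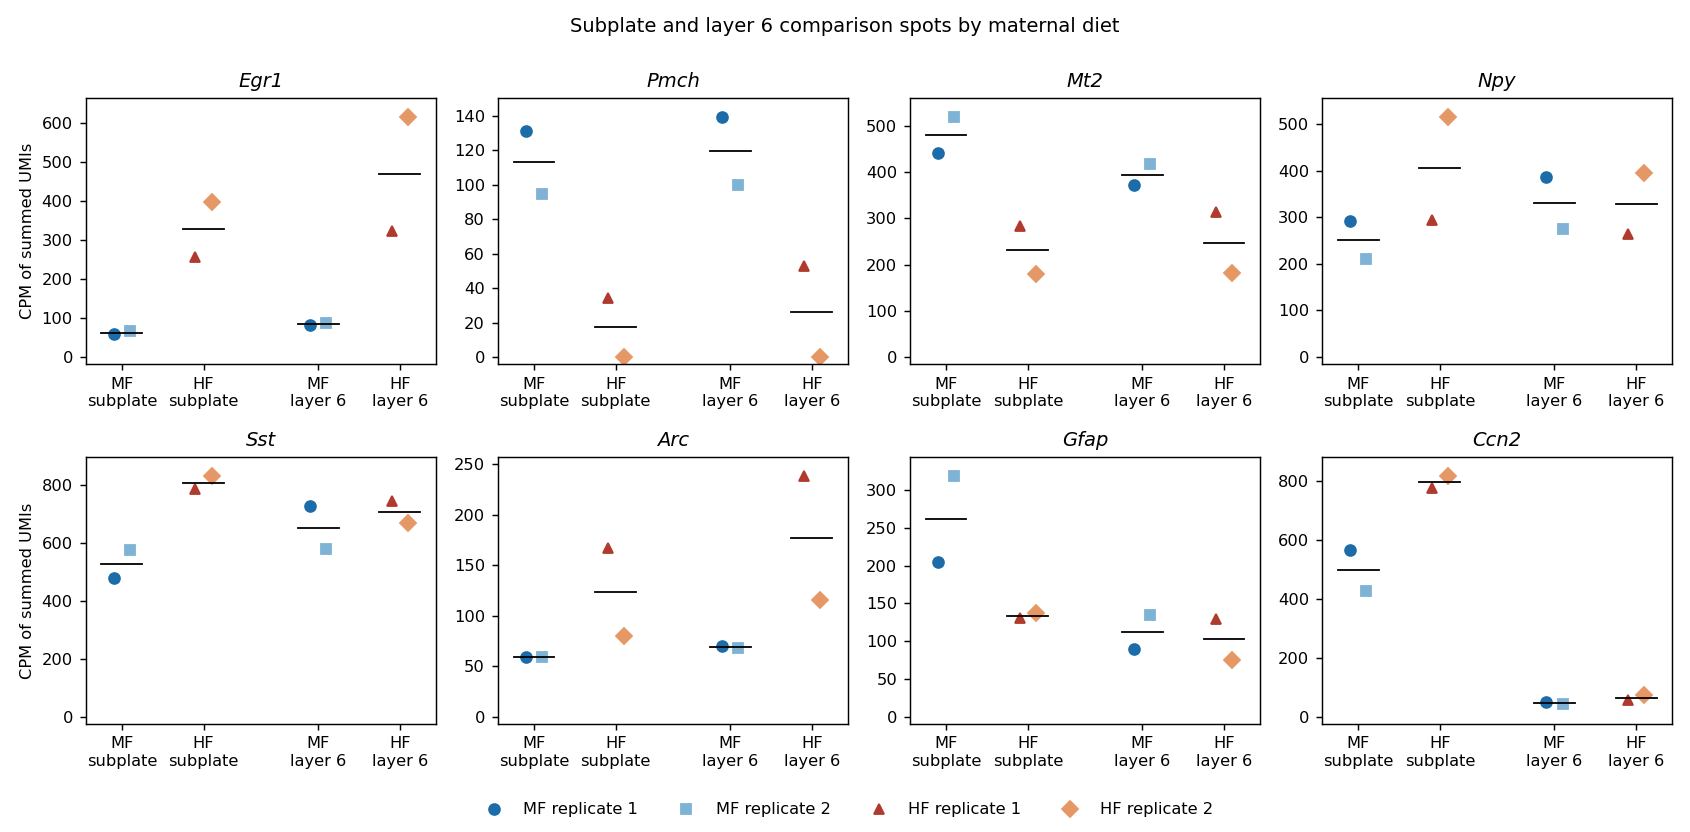
Levels (CPM of the summed spots, 1 point per section, with the mean of each diet as a line) of 8 genes in subplate spots and in layer 6 comparison spots, by maternal diet. Egr1 is higher and Pmch and Mt2 are lower in the HF sections in both kinds of spots, whereas Npy is separate by diet in the subplate spots and overlaps in layer 6. Ccn2 chose the subplate spots and is shown as a description.

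No gene of the myelin and astrocyte lists was called between diets. All 14 myelin genes were tested by edgeR, with 5 at an unadjusted p-value under 0.05, against 3.85% of all genes. All 14 had negative fold changes, with a median of -0.28 on the log2 scale, where 50.5% of all genes were positive. In 11 the HF sections lay below both MF sections, against 15.4% of all genes. Over all other spots the 14 genes summed to 25565 and 26782 CPM in MF and 21284 and 22792 CPM in HF, also separate by diet. The lower sum in HF was thus not particular to the members. Layer 6 spots had 16368 and 15895 CPM in MF and 15921 and 15574 CPM in HF, overlapping. In the band alone the 14 genes summed to 32331 and 28824 CPM in MF and 30959 and 23997 CPM in HF, overlapping. Within the upper part of the band the 14 genes summed to 42314 and 38798 CPM in MF and 37286 and 34195 CPM in HF, separate by diet. That part reached row 49 in HF replicate 2, against rows 26, 29 and 24 in the other sections. Within the lower part the 14 genes summed to 21077, 19165, 23789 and 13866 CPM, overlapping. Of 10 astrocyte genes, 8 were negative (median -0.18), with none called and 2 at an unadjusted p-value under 0.05. Gfap had 205 and 318 CPM in MF and 130 and 138 CPM in HF (log2 -0.91, adjusted p = 0.248 by edgeR), and the water channel gene Aqp4 had 72.5, 151, 61.4 and 31.1 CPM (log2 -1.20, adjusted p = 0.719). Of 16 other settings of the members or the test, Gfap was called lower in HF in 6 and Aqp4 in 7.

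The subplate genes themselves showed no called difference. Of 6 tested, none was called by edgeR, with 1 (Nr4a2) at an unadjusted p-value under 0.05, and the median log2 fold change was 0.14. Nr4a2 had a log2 fold change of 0.68 (adjusted p = 0.719 by edgeR). In the band alone it was called higher in HF (log2 0.78, adjusted p = 0.0272), and it was also higher in the lower part of the band, with the band of HF replicate 2 the lowest on its array. Ccn2 and Cplx3 were higher in HF on average, at 567 and 426 against 776 and 816 CPM for Ccn2 and at 371 and 244 against 381 and 416 CPM for Cplx3, which is a description of the values that chose the spots.

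Some genes were not called with the 50 members of each section and were called in other settings. Sst, the peptide of a class of interneurons, had 478 and 577 CPM in MF and 789 and 830 CPM in HF (log2 0.63, adjusted p = 0.336 by edgeR). It was called in 4 of 16 other settings, the band alone among them (log2 0.74, adjusted p = 0.000824 by edgeR). Within the upper part it had 342, 427, 823 and 744 CPM, separate by diet, and within the lower part 641, 585, 624 and 1049 CPM, overlapping. The parts covered other rows in HF replicate 2, as given above. Col23a1 had 35.6, 44.0, 54.0 and 98.3 CPM (log2 1.05, adjusted p = 0.558 by edgeR). It was called in the band alone (log2 1.12, adjusted p = 0.0221 by edgeR) and without HF replicate 1, which leaves only the HF section with more Col23a1. It was separate by diet in both parts, with the values given above. Vip had 24.8, 27.1, 56.5 and 59.0 CPM (log2 1.18, adjusted p = 0.388 by edgeR). Unlike Sst and Col23a1, Vip was not called in any of the 16 other settings.

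Whether the diet effect differed from that in the neighbouring layer was tested as an interaction over both kinds of spots, with section as a block. Of 10847 genes 1 was called (0.00922%), and 467 (4.31%) had an unadjusted p-value under 0.05. Npy (chromosome 6 from 49822710 to 49829507), which encodes neuropeptide Y and is made by a class of interneurons, had 292 and 211 CPM in MF and 295 and 516 CPM in HF in the members. The nearest HF and MF sections were 295 and 292 CPM. In layer 6 spots it had 386 and 276 CPM in MF and 263 and 396 CPM in HF. The diet effect was larger in the members by 0.70 on the log2 scale (SE 0.13, adjusted p = 0.0286 by edgeR). The call was kept without HF replicate 1 (0.78, adjusted p = 8.98e-05 by edgeR) and in 5 of 15 other settings in all. It was lost without HF replicate 2 (0.54), without MF replicate 1 (0.67), without MF replicate 2 (0.71) and by DESeq2 (0.68, adjusted p = 0.99992). The size of the difference changed with the choice of members. It was 0.15 with 100 spots per section, 0.46 with 30 spots and 0.12 after thinning to 5000 UMIs, none of them called. With Ccn2 alone it was 0.60 and with Cplx3 alone 0.22, also not called. In the band (0.80) and for members with a neighbour (0.78) it was called. Sst had a difference of 0.56 in the same test (adjusted p = 0.127 by edgeR).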

How the data were processed

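Visium-FFPE reads of 4 sections were aligned by the authors to mm10 (GRCm38) with Space Ranger 2.0.0, and the deposited counts are raw UMI counts of 19465 features per spot without normalization, with spot positions. Per the file headers, a deposited table also holds Moran's I, a score for spatial clustering without further scaling, given no part in the results, and p-value and normalized signal columns that were not used. Image scale factors were not used. Gene positions are those of GENCODE vM21 (19451 features matched).

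The members and the 24 gene lists were chosen with earlier results of these data known. Levels are CPM of UMIs summed per section and kind of spots. Sums were compared with edgeR 4.0.16 (R 4.3.3; TMM, filterByExpr, quasi-likelihood test), with Benjamini-Hochberg adjustment over all genes tested, an adjusted p-value under 0.05 and a fold change of at least 1.2. Named genes are those of the lists, the leading genes by the lowest ratio over sections (15 against other spots, 10 against layer 6 spots), called genes, and those with the lowest p-values among genes separate by diet. For the parts of the band, the genes named were chosen after their values were seen. Alternatives were DESeq2 1.42.0, library size alone, no filter on low counts, thinning to 5000 UMIs, 30 or 100 spots, either marker alone, members with neighbours, the band, a replicate block, white matter for layer 6 and each section left out. The tests were tried on simulated data with 200 genes changed 2-fold: in the diet comparison edgeR recovered 61% with 1 false call and DESeq2 30.5% with 0 (8880 genes), in the interaction 37% with 2 (10799 genes), and along the band 78% with 3 (6752 genes). Some genes are not reported here. The labels do not say whether sections of a group came from separate litters.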

Additional observations from a re-analysis of the deposited data

Results flagged for a closer look

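The diet effect on Npy, the neuropeptide Y gene, differed between the subplate spots and the layer 6 comparison spots by 0.70 on the log2 scale (SE 0.13, adjusted p = 0.0286 by edgeR, 4 sections), as a test of the difference itself. In the subplate spots it had 292 and 211 CPM in MF and 295 and 516 CPM in HF, which was not called (log2 0.68, adjusted p = 0.792 by edgeR), and in layer 6 the diets overlapped. HF replicate 2 had the highest value in both kinds of spots. Npy was not called between the parts of the band (log2 -0.12, adjusted p = 0.732 by edgeR). The call was kept in 5 of 15 other settings. Over these settings the difference ranged from 0.12 (after thinning to 5000 UMIs) to 0.80 (in the band).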

How the results depend on the processing

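The band, its parts and the crossed block were added after seeing the data. Egr1 was called in all 16 other settings of the diet comparison. Of the 3 called genes, Mt2 missed the threshold in 5 settings and Pmch in 4, DESeq2 among them (log2 -2.73). The count was 1 with 100 spots per section, with Ccn2 alone and after thinning to 5000 UMIs, 10 in the band, 8 for members with a neighbour and 8 without a filter, always including Egr1. Leaving out a section gave 7 to 38 calls, with 38 without HF replicate 1, 33 without HF replicate 2, 9 without MF replicate 1 and 7 without MF replicate 2. A replicate block gave 6 calls and a crossed block 8. The deviations of same-numbered sections correlated at -0.11, which gave no sign of pairing. With 2 sections per diet both same-numbered pairs share this value by construction, so it cannot exclude pairing. Thinning shared 34, 24, 37 and 34 of the 50 members.

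The interaction count was 2 with 100 spots (Hba-a2 and Hbb-bs), 2 in the band, 15 for members with a neighbour and 6 without a filter. It was 0 with 30 spots, with Ccn2 alone, with DESeq2 and against white matter (457, 400, 13 and 395 genes at an unadjusted p-value under 0.05), and 0 to 10 with a section left out. The Sst term reversed after thinning (-0.24). The cause was not tested.

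Along the band DESeq2 called 48 genes, all among the 365. Library size alone called 366, with 165 higher and 201 lower. Leaving out a section gave 135 (without MF replicate 1) to 323, and 215 without HF replicate 2. The share of members with an adjacent member was 66.5% with Ccn2 alone, 56% with Cplx3 alone, 89.6% in the band, 62.0% after thinning, and 72.7 to 78.7% with a section left out. Nxph4 stayed above other spots in all 10 settings, by a mean log2 ratio of 1.51 to 2.36 (2.08 as reported). Depth limits genes with few UMIs, such as Drd1, Moxd1 and Hcrtr2.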

Other observations

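Genes of folate transport and one-carbon metabolism were not prominent in the subplate spots. Of 20 such genes, 1 was above and 5 below other spots in all 4 sections, against 19.9% and 19.3% of the 4841 genes. Folr1, the folate receptor abundant in the choroid plexus, had 3.02, 6.77, 2.46 and 6.55 CPM in the members against a mean of 18.8 CPM in other spots. Of 8 genes that could be tested between diets none was called by edgeR and none had an unadjusted p-value under 0.05, with a median log2 fold change of 0.14.

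Of 18 genes for transmitter release, 10 were above and 3 below other spots in all 4 sections, against 19.9% and 19.3% of the 4841 genes. The SNARE gene Stx1a had 150, 159, 155 and 187 CPM against a mean of 104 CPM, and the active zone gene Rims1 had 494, 514, 536 and 532 CPM against 389 CPM. Along the band Syn2, a synapsin, was the single gene of this list that was called (log2 0.87 in the lower part, adjusted p = 2.82e-07 by edgeR). Of 15 clock genes 9 were below other spots in all 4 sections, against 19.3% of the 4841 genes. Npas2 was above in all 4 sections, with 91.2, 88.0, 101 and 80.3 CPM against a mean of 55.9 CPM. Microglial genes were near the level of other spots, with summed levels of 507, 624, 666 and 429 CPM against 525 to 553 CPM.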
